A study of Mus musculus with 2 samples.

Results

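The subject here is the set of genes that encode the cohesin complex, in its mitotic and its meiotic form, and its loader. The 10 members were chosen by name: Smc1a, Smc3, Rad21, Stag1 and Stag2 of the mitotic complex, Smc1b, Rad21l, Rec8 and Stag3 of the meiotic complex, and the loader gene Nipbl. They are 10 of 23445 genes named in the files, and all 10 passed the filter of 1 FPKM in at least 1 library that left 13824 genes to compare. The RNA came from spermatogonial progenitor cells (SPCs), the germ cells that maintain spermatogenesis, isolated from the testis of C57BL/6 mice that were 8 days old. The groups were a Dnmt3l knockout and a wild type with 1 library of each. Dnmt3l encodes a partner of the de novo DNA methyltransferases that has no catalytic activity of its own. Neither the knockout allele, the isolation method nor the number of mice per library is given in the labels. With 1 library per genotype no difference was tested, and every value describes these libraries. The values are FPKM, fragment numbers scaled for the length of the transcript and the size of the library, so levels of different genes can be compared per length. Read counts are not in the files and the depth of each library is unknown.

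Cohesin is a ring of a pair of SMC proteins closed by a kleisin, with an SA (stromal antigen) subunit bound to the kleisin. It holds sister chromatids together from replication until division and forms chromatin loops. In germ cells that enter meiosis, several subunits have a meiotic counterpart: SMC1B for SMC1A, REC8 and RAD21L for the kleisin RAD21, and STAG3 for the SA subunits STAG1 and STAG2. SMC3 serves both forms, and NIPBL, with MAU2, loads the ring onto chromatin. Meiotic cohesin forms the axis of meiotic chromosomes, on which the synaptonemal complex is built.

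The promoters of the SMC1 and SA paralogs, with that of Rec8, are shown because they are the starts from which the mitotic and meiotic forms are transcribed and because DNMT3L acts on DNA methylation, whose substrate is the CpG dinucleotide. Each line runs from 250 bases before to 50 after the start, on the strand of the gene, from RefSeq on GRCm38.p6. Capitals mark TTCCCGC, a core of sites that E2F family factors, regulators of S phase genes, are known to bind. The positions are chr15:85131908-85132207 (minus strand) for Smc1b, chrX:152016178-152016477 (plus) for Smc1a, chr5:138280259-138280558 (plus) for Stag3, chr9:100643198-100643497 (plus) for Stag1 and chr14:55617916-55618215 (plus) for Rec8.
Smc1b: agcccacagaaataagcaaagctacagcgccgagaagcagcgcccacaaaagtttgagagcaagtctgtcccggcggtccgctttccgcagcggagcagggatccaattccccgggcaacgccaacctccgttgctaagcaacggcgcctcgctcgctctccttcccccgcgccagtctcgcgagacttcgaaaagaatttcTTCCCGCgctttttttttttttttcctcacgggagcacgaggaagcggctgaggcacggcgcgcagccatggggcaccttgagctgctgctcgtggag
Smc1a: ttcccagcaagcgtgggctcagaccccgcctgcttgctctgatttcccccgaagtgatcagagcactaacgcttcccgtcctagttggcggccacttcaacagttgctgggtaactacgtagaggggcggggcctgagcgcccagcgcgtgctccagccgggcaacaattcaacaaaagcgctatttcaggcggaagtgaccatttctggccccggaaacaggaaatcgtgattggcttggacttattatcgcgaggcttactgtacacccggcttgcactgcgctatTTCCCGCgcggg
Stag3: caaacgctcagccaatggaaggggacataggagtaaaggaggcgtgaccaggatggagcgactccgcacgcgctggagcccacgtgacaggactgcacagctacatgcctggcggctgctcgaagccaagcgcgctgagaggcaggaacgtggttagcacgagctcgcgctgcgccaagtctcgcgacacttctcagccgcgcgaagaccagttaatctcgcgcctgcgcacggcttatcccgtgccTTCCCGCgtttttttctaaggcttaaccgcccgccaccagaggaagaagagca
Stag1: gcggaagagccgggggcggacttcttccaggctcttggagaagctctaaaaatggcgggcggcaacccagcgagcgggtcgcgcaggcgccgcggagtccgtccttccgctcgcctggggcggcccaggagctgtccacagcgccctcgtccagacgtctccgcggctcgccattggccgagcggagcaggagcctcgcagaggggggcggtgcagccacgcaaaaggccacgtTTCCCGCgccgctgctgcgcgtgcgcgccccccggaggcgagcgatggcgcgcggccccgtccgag
Rec8: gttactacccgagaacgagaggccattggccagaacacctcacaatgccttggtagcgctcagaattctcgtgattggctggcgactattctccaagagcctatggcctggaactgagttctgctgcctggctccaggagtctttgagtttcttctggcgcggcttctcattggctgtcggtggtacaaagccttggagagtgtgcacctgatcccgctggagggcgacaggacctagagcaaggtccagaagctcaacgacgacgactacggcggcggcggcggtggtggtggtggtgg

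TTCCCGC, searched on both strands, was found in 4 of the 7 member promoters in the RefSeq table, in the forward direction each time. It lay at bases -48 to -42 from the start in Smc1b, -3 to 4 in Stag3, -16 to -10 in Stag1 and 39 to 45 in Smc1a. It was not found in the windows of Rec8, Smc3 and Rad21l, and Rad21, Stag2 and Nipbl were not matched in the table. The Stag1 window surrounds the start in the table, which lies upstream of the start in the deposited files. Of all 32851 promoters of the same length 4.6% held it, and of the 9764 with 18 or more CpG 10.9% did. The E-box CACGTG, searched on both strands, was found only in the window of Stag3, at bases -170 to -165, with no overlap with TTCCCGC. It was held by 7.15% of all promoters and by 11.6% of those with 18 or more CpG. The number of CpG was 29 in Smc1b, 30 in Stag3, 18 in Rec8, 23 in Smc1a, 43 in Stag1 and 32 in Smc3, against a median of 7 over all promoters. The Rad21l window held 2 CpG and is not shown, since the assembled models of both libraries begin upstream of it. A match describes the letters of the window and is not a measured site, and no methylation was measured.

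By the sum over transcripts and models, 3 meiotic genes stood above and 3 mitotic genes below the wild-type library in knockout SPCs. Their bounds did not overlap. Of all genes compared, 35.4% were higher and 16.2% lower with bounds apart. The meiotic genes were Rec8, Smc1b and Stag3, and those counted as mitotic Rad21, Stag1 and Smc3, which serves both forms. The mitotic gene Stag2 and the loader gene Nipbl were also higher by this sum, but by the level over all their exons both were lower. Rec8 has 1 transcript in both libraries, so its measures are 1 value. Averaged over 1000 nt, Smc1b and Stag3 were lower at the 5′ end and higher at the 3′ end. Over the last of 10 equal parts of its transcript, Stag3 was lower, at 53.8 FPKM in knockout and 62.0 FPKM in wild-type SPCs. Over all exons Smc1b and Stag3 had log2 ratios of 0.05 and 0.11, below the median of 0.16 over all genes compared. With RefSeq transcripts alone Rad21 and Stag1 were nearly equal between the libraries, with log2 ratios of -0.011 and -0.07. No member was at least 2-fold higher and none at least 2-fold lower, on the scale of log2(FPKM + 1), where 7.67% of all genes compared were higher and 3.49% lower by that much.

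A value per gene is the sum over its RefSeq transcripts and the models assembled on its strand, with the sums of their deposited bounds in brackets. These bounds describe how well each library fixed its own estimate and say nothing of how mice differ. Bounds lay apart with the knockout library higher for 5 of the 10 members, against 35.4% of all genes compared, and with it lower for 3, against 16.2%. The median log2 ratio over all genes compared was 0.22 for the sum and 0.16 for the exon level. For the exon level, the FPKM of every model that covers a given RefSeq exon base were added up, and these per-base totals were averaged along the gene, so a short partial model adds only over the bases that it covers.

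For the libraries as a whole, Dnmt3l was listed at 0 in knockout and at 1.67 FPKM (0.791 to 2.68) in wild-type SPCs, and a listed 0 can be a failed estimate. The germ cell markers Ddx4, Dazl, Dppa4, Tex101 and Mael were above 0 in both libraries and summed at the exon level to 597.1 FPKM in knockout SPCs and 620.9 FPKM in wild-type SPCs. The 7 markers of differentiating spermatogonia summed to 236.6 FPKM in knockout and 297.1 FPKM in wild-type SPCs, with 2 at least 2-fold lower, and the 9 of undifferentiated spermatogonia to 287.5 FPKM in knockout and 276.9 FPKM in wild-type SPCs, with 1 at least 2-fold higher and 1 lower. Of 10 Sertoli cell markers 5 were at least 2-fold higher, with sums of 1089 FPKM in knockout and 468.7 FPKM in wild-type SPCs. The 6 Leydig cell markers, of which Star was at 0 in both, summed to 131.4 FPKM in knockout and 60.1 FPKM in wild-type SPCs. The 9 macrophage markers, of which Cd68 was at 0 in knockout SPCs, summed to 814.2 FPKM in knockout and 414.2 FPKM in wild-type SPCs. Endothelial markers, 7 in all, had 99.3 FPKM in knockout and 53.1 FPKM in wild-type SPCs, and 7 peritubular and stromal markers 695.5 FPKM in knockout and 490.4 FPKM in wild-type SPCs. The sums of the somatic lists were thus higher and that of the differentiating list lower in knockout SPCs. Not every somatic marker was higher. The exon-level log2 ratio was above 0 for all 10 Sertoli cell markers and for 4 of the 5 Leydig cell markers compared. It was above 0 for 7 of 9 macrophage, 6 of 7 endothelial and 5 of 7 peritubular and stromal markers. The germ cell and undifferentiated sums were close, but single genes within them moved in opposite directions. At the exon level, the log2 ratios of the germ cell markers ran from -0.70 for Dazl to 1.59 for Dppa4. Those of the undifferentiated markers ran from -1.33 for Zbtb16 to 1.23 for Id4. Close sums therefore do not show that germ cell content or state was matched. The part of these lists in the cohesin values was not tested.

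Rec8, the kleisin of meiotic cohesin that shugoshin protects at centromeres (chromosome 14, 55618166 to 55625395, plus strand, mm10), was at 23.1 FPKM (21.3 to 25.0) in knockout SPCs and 12.04 FPKM (10.7 to 13.4) in wild-type SPCs. The ratio was 1.92-fold and the log2 ratio 0.89. A single RefSeq transcript of 20 exons and 2055 nt carried the whole level in both libraries, with no assembled model, so sum and exon level are the same. Across the settings of the processing the log2 ratio lay between 0.56, with the length trend removed, and 1.08, from deposited coverage; those that choose among models or ends of the transcript cannot move it. Genes of similar transcript length had a median log2 ratio of 0.29 at the exon level, and relative to them the log2 ratio of Rec8 was 0.60. In bulk RNA, fewer cells of a type and less RNA per cell cannot be told apart, here and below.

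Rad21l, the other meiotic kleisin (chromosome 2, 151645404 to 151668533, minus strand), was the lowest member at 3.39 FPKM (2.80 to 4.03) in knockout SPCs and 5.16 FPKM (3.85 to 6.43) in wild-type SPCs. The bounds overlapped, and the log2 ratio was -0.49, while genes of similar length had a median of 0.36 at the exon level. An assembled model of 14 exons carried 3.385 FPKM in knockout SPCs and 3.387 FPKM in wild-type SPCs. The RefSeq transcript of 13 exons in the files was listed at 0 in knockout SPCs, with an upper bound of 0.0679, and at 1.77 FPKM (1.09 to 2.43) in wild-type SPCs. Both assembled models begin upstream of the RefSeq start in the files, by 2058 nt in knockout and by 2098 nt in wild-type SPCs. These starts lie 31 nt and 9 nt from position 151670622, where the current RefSeq table begins the gene. The promoter window at the older start is therefore within the span of the assembled models.

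Smc1b, the meiotic SMC1 (chromosome 15, 85064689 to 85131957, minus strand), stood at 51.9 FPKM (48.2 to 55.5) in knockout SPCs and 35.4 FPKM (33.3 to 37.4) in wild-type SPCs by the sum, a log2 ratio of 0.54. The full RefSeq transcript of 25 exons carried 12.8 FPKM (11.7 to 13.9) in knockout and the whole 35.4 FPKM in wild-type SPCs. The other 39.1 FPKM (36.5 to 41.6) of knockout SPCs belonged to an assembled model of 17 exons that covers the transcript from base 1566 to its end. Its first exon, 55 nt at 85114345 to 85114399, lies between RefSeq exons, and the intron that joins it is not in GENCODE M21. Over the 1000 nt at the 5′ end the knockout level was 36.2% of the wild-type one, and at the 3′ end the levels were 51.9 FPKM in knockout and 35.4 FPKM in wild-type SPCs. Over all exon bases the libraries were nearly alike, at 36.7 FPKM in knockout SPCs and 35.4 FPKM in wild-type SPCs, a log2 ratio of 0.05.

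Stag3, the meiotic SA subunit (chromosome 5, 138280509 to 138312393, plus strand), was at 83.0 FPKM (76.6 to 86.9) in knockout SPCs and 62.0 FPKM (59.5 to 64.9) in wild-type SPCs by the sum, a log2 ratio of 0.42. Again the full transcript, of 34 exons, was lower in knockout SPCs, at 46.5 FPKM (44.1 to 48.8), against 62.0 FPKM in wild-type SPCs, where it carried everything. A model of 23 exons, which starts at base 1267 of the transcript, carried 36.5 FPKM (32.5 to 38.1) in knockout SPCs. That model covers 55.6% of the transcript and has 2 introns that RefSeq lacks, of which 1 is in GENCODE M21. By the exon level Stag3 was at 66.8 FPKM in knockout SPCs and 62.0 FPKM in wild-type SPCs, a log2 ratio of 0.11. Averaged over the 1000 nt at the 3′ end, the level was 70.7 FPKM in knockout and 62.0 FPKM in wild-type SPCs. The partial model ends 338 nt short of the RefSeq end. Over the last of 10 equal parts of the transcript the level was 53.8 FPKM in knockout and 62.0 FPKM in wild-type SPCs. The first exon of the partial model, 56 nt at chr5:138297116-138297171 on the plus strand, lies inside an intron that a GENCODE M21 transcript retains, from which its sequence is read; it is shown because it is the segment that the RefSeq transcript lacks.
Stag3 internal first exon: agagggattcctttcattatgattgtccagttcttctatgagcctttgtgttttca

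**Figure D1:**
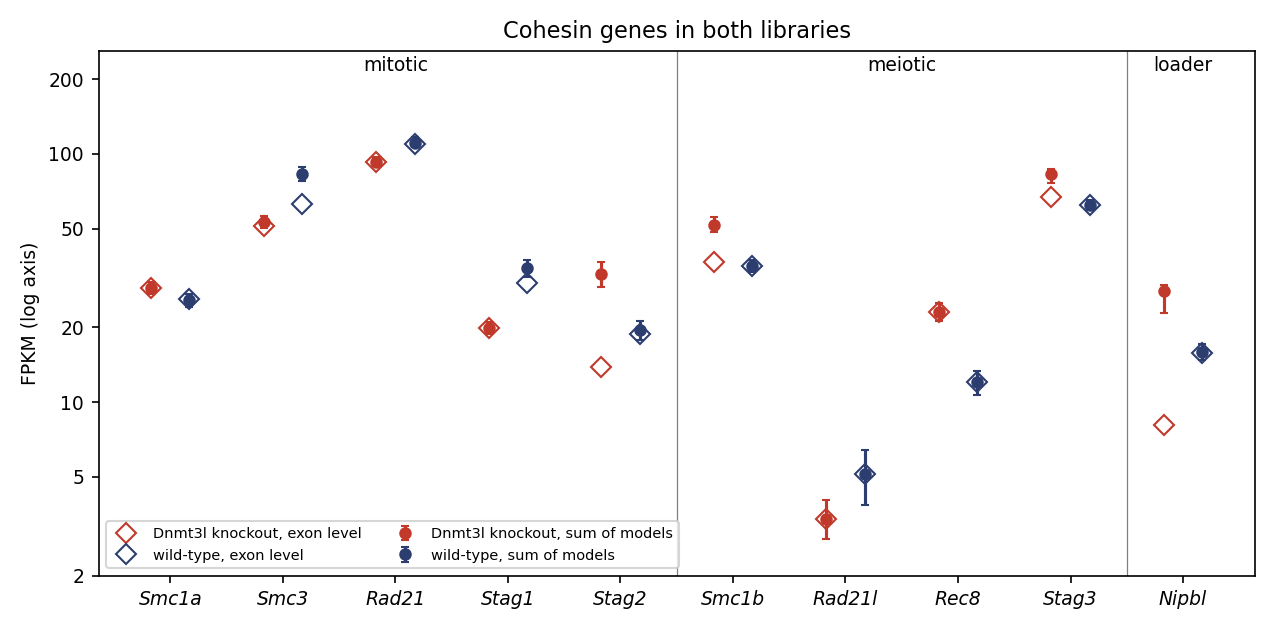
FPKM of each member (log axis) in Dnmt3l knockout and wild-type SPCs. Filled points are sums over RefSeq transcripts and assembled models, bars are the summed bounds of the deposited files, and open diamonds are exon levels. Rec8 has 23.1 FPKM in knockout SPCs and 12.04 FPKM in wild-type SPCs by both measures, whereas Stag2 and Nipbl lie above the wild-type library by the sum and below it by the exon level.

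Among the mitotic genes, Smc1a, the SMC1 of every dividing cell (chromosome X, 152016428 to 152061973, plus strand), was at 28.9 FPKM (27.1 to 30.4) in knockout SPCs and 25.8 FPKM (24.1 to 27.3) in wild-type SPCs. Its bounds overlapped, and a single RefSeq transcript of 25 exons carried the level in both. The log2 ratio of 0.16 lay below that of the median gene, and turned to -0.13 when the libraries were scaled to their totals without the 50 most abundant genes.

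Smc3, shared by both forms of the ring (chromosome 19, 53600396 to 53645831, plus strand), was at 53.1 FPKM (50.3 to 56.3) in knockout SPCs and 82.9 FPKM (77.8 to 88.5) in wild-type SPCs, a log2 ratio of -0.63. Of the wild-type level, 29.5 FPKM belonged to a model of 10 exons within the transcript. The full RefSeq transcript was at 45.6 FPKM (43.7 to 47.8) in knockout SPCs and 53.4 FPKM (51.4 to 56.0) in wild-type SPCs. The exon levels were 51.4 FPKM in knockout and 62.7 FPKM in wild-type SPCs, a log2 ratio of -0.28. The 5′ end levels were 53.1 FPKM in knockout SPCs and 53.4 FPKM in wild-type SPCs, so the difference lay in the middle and the 3′ part.

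Rad21, the mitotic kleisin that separase cuts at anaphase (chromosome 15, 51962604 to 51991760, minus strand), was the most abundant member in both libraries. It stood at 93.0 FPKM (90.8 to 96.9) in knockout SPCs and 110.5 FPKM (106.1 to 116.4) in wild-type SPCs, a log2 ratio of -0.25. The RefSeq transcript was at 93.0 FPKM in knockout and 93.8 FPKM in wild-type SPCs. The remaining 16.7 FPKM of wild-type SPCs belonged to a model of 14 exons with another first exon, whose intron is annotated in GENCODE M21.

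Stag1, an SA subunit of mitotic cohesin (chromosome 9, 100643623 to 100958544, plus strand), was at 19.9 FPKM (18.8 to 21.1) in knockout SPCs and 34.6 FPKM (32.0 to 37.2) in wild-type SPCs, a log2 ratio of -0.77. Its exon level was 19.9 FPKM in knockout and 30.2 FPKM in wild-type SPCs, a log2 ratio of -0.58. By that measure the median of genes of similar length was -0.26. The RefSeq transcript of 34 exons was nearly equal, at 19.9 FPKM in knockout SPCs and 20.96 FPKM in wild-type SPCs. A further 13.7 FPKM (12.3 to 15.01) of wild-type SPCs was in a model of 35 exons that begins 295 nt upstream, holds an added exon annotated in GENCODE M21 and ends 1960 nt before the RefSeq end.

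Stag2, the X-linked SA subunit (chromosome X, 42149412 to 42277175, plus strand), was at 32.9 FPKM (29.1 to 36.7) in knockout SPCs and 19.5 FPKM (17.8 to 21.2) in wild-type SPCs by the sum. For the exon level the order was the opposite, 13.8 FPKM in knockout and 18.8 FPKM in wild-type SPCs, a log2 ratio of -0.42. By that measure the median of genes of similar length was -0.18. Of the knockout level, 21.3 FPKM (18.4 to 24.3) belonged to a model of 7 exons and 874 nt that covers 12.1% of the transcript. The transcripts that cover most of the gene summed to 11.6 FPKM in knockout SPCs and 19.5 FPKM in wild-type SPCs.

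The libraries also differed in which Stag2 transcript was listed. Of the long transcripts, the knockout library had 11.6 FPKM on the one that starts at the upstream first exon and 0 on the one that starts at the downstream first exon. The wild-type library had 8.44 FPKM on the upstream and 11.04 FPKM on the downstream one. An exon of 111 nt at chrX:42266366-42266476, on the plus strand, was included in models that carried 21.3 of 32.9 FPKM (64.9%) in knockout SPCs and 8.44 of 19.5 FPKM (43.3%) in wild-type SPCs. In knockout SPCs the exon was held by the short model alone. It is absent from the RefSeq transcripts in the files and is exon 31 of a protein-coding GENCODE M21 transcript, from which its sequence is read. It is shown because it tells the models that include it from the RefSeq transcripts, which differ from each other in their first exon.
Stag2 cassette exon: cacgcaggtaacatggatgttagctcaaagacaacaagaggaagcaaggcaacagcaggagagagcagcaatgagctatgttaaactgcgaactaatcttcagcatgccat

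Nipbl, whose product loads cohesin (chromosome 15, 8291225 to 8444463, minus strand), stood at 27.9 FPKM (22.8 to 29.6) in knockout SPCs and 15.9 FPKM (14.8 to 17.1) in wild-type SPCs by the sum. A single-exon model of 1177 nt at the 3′ end held 20.6 FPKM (16.2 to 21.6) of the knockout level and covered only the last 366 bases of the RefSeq transcript and 767 nt beyond. The transcripts of 47 exons summed to 7.33 FPKM in knockout SPCs and 15.9 FPKM in wild-type SPCs. The exon levels were 8.06 FPKM in knockout and 15.7 FPKM in wild-type SPCs, a ratio of 0.513 and a log2 ratio of -0.88. No mitotic member differed by as much at the exon level. Over the 1000 nt at the 5′ end the levels were 7.33 FPKM in knockout and 15.9 FPKM in wild-type SPCs, and at the 3′ end 14.9 FPKM in knockout and 15.9 FPKM in wild-type SPCs. With a longest transcript of 8815 nt, Nipbl is the longest member, and genes of similar length had a median log2 ratio of -0.46 at the exon level.

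**Figure D2:**
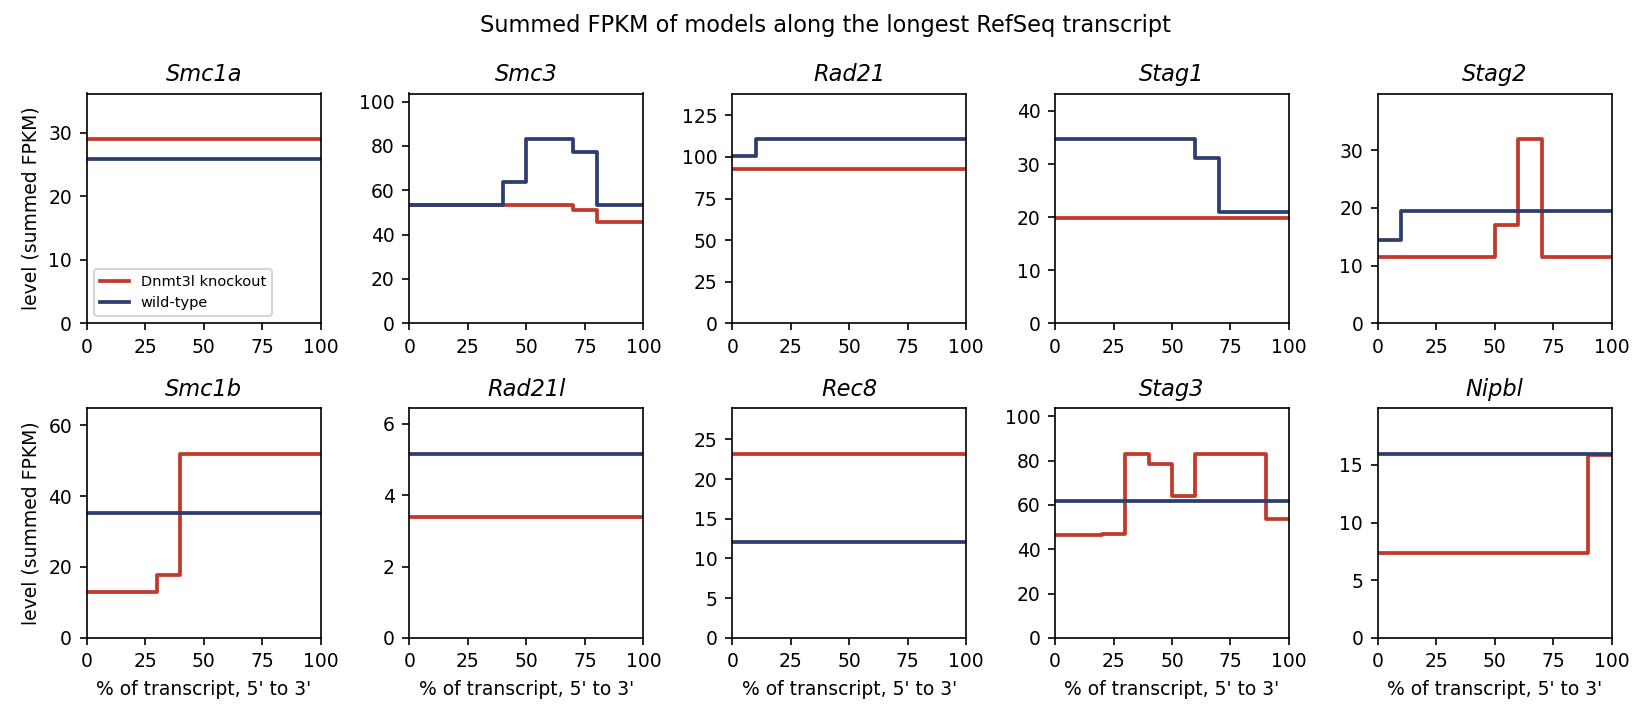
Summed FPKM of the counted models (y axis) in 10 equal parts of the longest RefSeq transcript of each member (x axis, percent of transcript from 5′ to 3′), in Dnmt3l knockout and wild-type SPCs. The values are sums over whole models and not read coverage. The knockout level of Smc1b is 12.8 FPKM at the 5′ end and 51.9 FPKM at the 3′ end, and that of Nipbl is 7.33 FPKM up to the last part, while Rec8 is even along its length.

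Of the 9 members with a transcript of 2000 nt or more, Smc1b and Nipbl were at least 2-fold lower in knockout SPCs over the 1000 nt at the 5′ end. Over the 9354 genes of that length, 9.17% were at least 2-fold lower and 2.67% at least 2-fold higher at the 5′ end, with a median log2 ratio of -0.08. At the 3′ end none of the 9 members was at least 2-fold different, where 5.02% of genes were higher and 3.15% lower by that much, and the median log2 ratio was 0.11. With RefSeq transcripts alone, Smc1b, Rad21l and Nipbl were at least 2-fold lower in knockout SPCs, where 10.1% of all genes were. By the exon level no member was at least 2-fold higher or lower, against 4.87% and 2.94% of all genes.

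**Figure D3:**
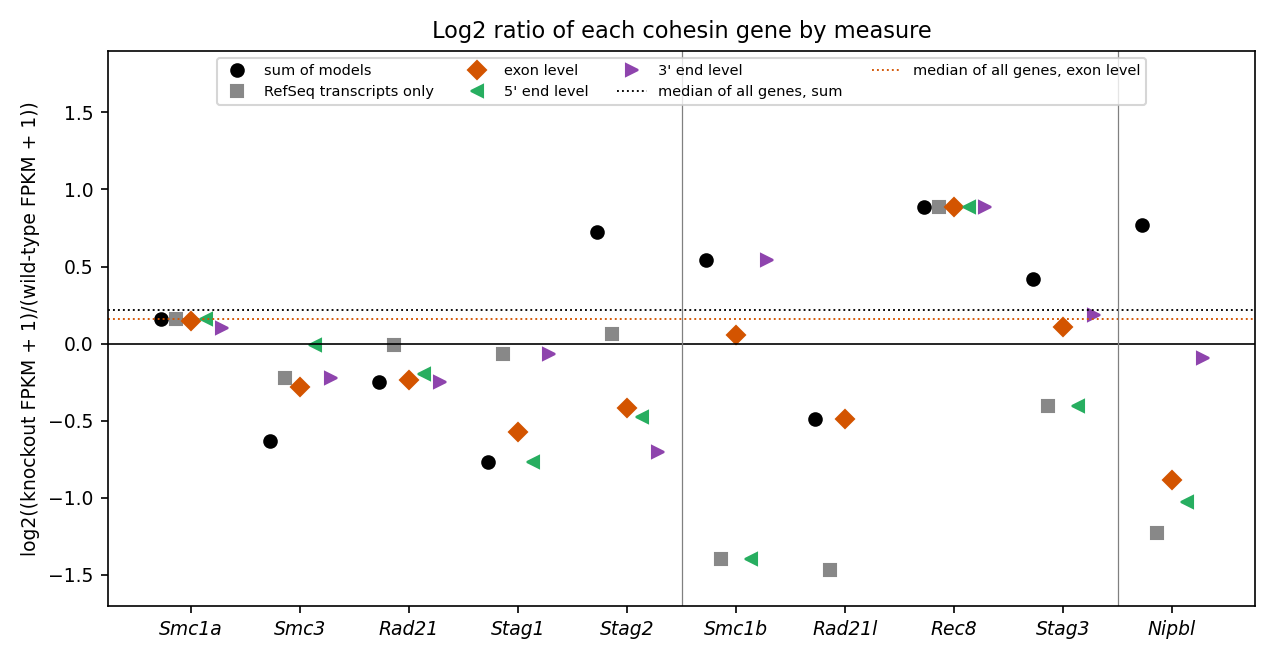
Log2 ratio of the knockout over the wild-type library (y axis, on log2(FPKM + 1)) of each member by 5 measures: the exon level, the sum of models, RefSeq transcripts only, and the levels over the 1000 nt at the 5′ and at the 3′ end. Dotted lines are medians over all genes compared, 0.22 for the sum and 0.16 for the exon level. The measures of Rec8, which has 1 transcript and so 1 value, lie at 0.89, and those of Smc1b run from -1.40 to 0.54.

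Rad21 was the highest and Rad21l the lowest member in both libraries. At the exon level Rad21 stood first in knockout SPCs at 93.0 FPKM, followed by Stag3 at 66.8, Smc3 at 51.4, Smc1b at 36.7 and Smc1a at 28.9 FPKM. Below these stood Rec8 at 23.1, Stag1 at 19.9, Stag2 at 13.8, Nipbl at 8.06 and Rad21l at 3.39 FPKM. In wild-type SPCs Rad21 was at 109.5, Smc3 at 62.7, Stag3 at 62.0, Smc1b at 35.4 and Stag1 at 30.2 FPKM. There followed Smc1a at 26.1, Stag2 at 18.8, Nipbl at 15.7, Rec8 at 12.04 and Rad21l at 5.16 FPKM. Smc3 and Stag3 were thus close neighbours in wild-type SPCs, and Rec8 stood above Stag1, Stag2 and Nipbl only in knockout SPCs. Among the genes compared, Rad21 was above 94.5% in knockout SPCs and 96.7% in wild-type SPCs, and Rec8 above 71.3% in knockout and 55.2% in wild-type SPCs.

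Setting each meiotic gene against its mitotic paralog within a library gives values that do not move with the scaling of that library, apart from the pseudocount. The meiotic paralogs were abundant for the SMC1 and SA subunits and scarce for the kleisins. Smc1b stood at 1.27 times Smc1a in knockout SPCs and 1.36 times in wild-type SPCs at the exon level. Stag3 stood at 3.35 times Stag1 in knockout SPCs and 2.05 times in wild-type SPCs, and at 4.83 times Stag2 in knockout and 3.30 times in wild-type SPCs. Rec8 reached 0.249 of the Rad21 level in knockout SPCs and 0.110 in wild-type SPCs, and Rad21l 0.0364 in knockout and 0.0471 in wild-type SPCs.

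As log2 differences of the knockout minus the wild-type library at the exon level, the pair of Rec8 over Rad21 moved most, by 1.12. The pairs of Stag3 over Stag1 and over Stag2 had 0.68 and 0.52, Smc1b over Smc1a -0.09, and Rad21l over Rad21 -0.26. By the sum, the differences were 1.14 for Rec8 over Rad21, 1.18 for Stag3 over Stag1, -0.31 for Stag3 over Stag2, 0.38 for Smc1b over Smc1a and -0.24 for Rad21l over Rad21. The sign for Stag3 over Stag2 and for Smc1b over Smc1a thus differed between the measures, as the partial models of Stag2 and Smc1b count in full in the sum. With RefSeq transcripts alone the differences were 0.90 for Rec8 over Rad21, -0.34 for Stag3 over Stag1, -0.47 for Stag3 over Stag2, -1.56 for Smc1b over Smc1a and -1.46 for Rad21l over Rad21. Rec8 over Rad21 was higher in knockout SPCs in all 17 settings, between 0.84 and 1.19. Many of these settings could hardly move it, since scaling nearly cancels within a pair, Rec8 has 1 transcript and several settings repeat 1 value. The pairs share genes: Rad21 and Stag3 each enter more than 1.

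Expressed as shares at the exon level, Rec8 made up 19.4% of the summed kleisin level in knockout SPCs and 9.50% in wild-type SPCs, Rad21l 2.83% in knockout and 4.07% in wild-type SPCs, and Rad21 77.8% in knockout and 86.4% in wild-type SPCs. Stag3 made up 66.4% of the summed SA level in knockout SPCs and 55.9% in wild-type SPCs. The 4 meiotic genes together summed to 130.1 FPKM in knockout SPCs and 114.5 FPKM in wild-type SPCs, and the 5 mitotic genes to 207.1 FPKM in knockout and 247.2 FPKM in wild-type SPCs. Smc3, which serves both forms, is counted among the mitotic genes here, and its exon-level log2 ratio is their median. The median log2 ratio at the exon level was 0.08 for the meiotic and -0.28 for the mitotic genes, beside 0.16 over all genes compared. By the sum it was 0.48 for the meiotic and -0.25 for the mitotic genes, beside 0.22, and with RefSeq transcripts alone it was -0.90 and -0.011, so the direction of the meiotic median rests on the assembled models. Centring the exon level on the median gene gave -0.07 for the meiotic and -0.43 for the mitotic genes. With the median of genes of like transcript length removed, the exon-level medians were 0.12 and -0.24.

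**Figure D4:**
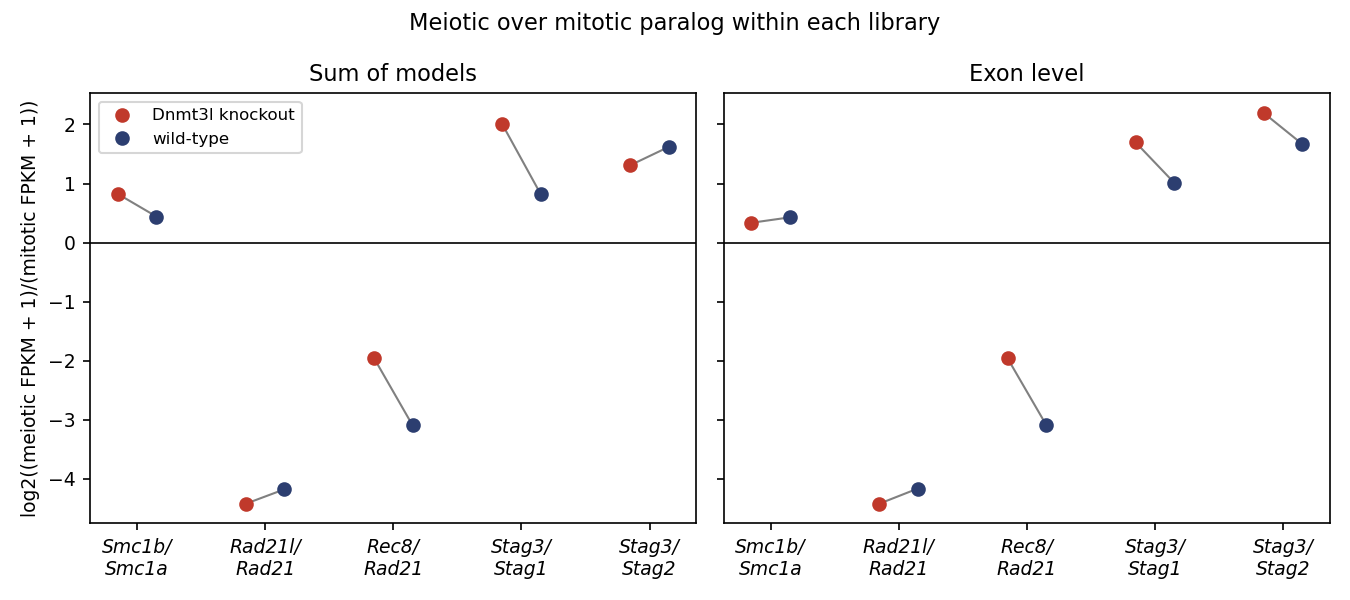
Log2 of the meiotic over the mitotic paralog (y axis, on FPKM + 1) within Dnmt3l knockout and wild-type SPCs, by the sum of models (left) and at the exon level (right). Each line joins the libraries for 1 pair. Rec8 over Rad21 lies at -1.96 in knockout SPCs and -3.08 in wild-type SPCs at the exon level, and the Stag3 pairs lie above 0 in both.

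Beside the members, 3 further lists of genes were followed. Of 20 cohesin regulators, all compared, none was at least 2-fold higher or lower by the sum. Bounds lay apart for 3 with the knockout library higher and for 8 with it lower, against 35.4% and 16.2% of all genes compared. The median log2 ratio was -0.21 by the sum and -0.34 at the exon level. Wapl, which releases cohesin from chromatin, was at 43.4 FPKM in knockout SPCs and 65.5 FPKM in wild-type SPCs. Ctcf, which stops loop extrusion by cohesin, was at 13.8 FPKM in knockout and 20.6 FPKM in wild-type SPCs. Esco2, which acetylates SMC3 during replication, was at 17.9 FPKM in knockout and 26.2 FPKM in wild-type SPCs. Pttg1, the securin gene, went the other way, at 67.4 FPKM in knockout and 41.1 FPKM in wild-type SPCs. Mau2, the partner of Nipbl in loading, was at 23.2 FPKM in knockout SPCs and 26.3 FPKM in wild-type SPCs. Pds5a, which binds cohesin with WAPL, was the only regulator at least 2-fold lower at the exon level, at 10.5 FPKM in knockout and 22.4 FPKM in wild-type SPCs, and is named after its values were seen, as is Mau2.

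The related condensin and SMC5/6 complexes, which compact chromosomes and act in repair, had a median log2 ratio of 0.23 by the sum and -0.33 at the exon level over 15 genes. Bounds lay apart for 6 genes with the knockout library higher and for 5 with it lower, against 35.4% and 16.2% of all genes compared. Smc2, the SMC shared by both condensins, was at least 2-fold lower by the sum, at 9.92 FPKM in knockout SPCs and 22.7 FPKM in wild-type SPCs. Nsmce1, a subunit of the SMC5/6 complex, was at 67.6 FPKM in knockout, above its own deposited bounds of 54.5 to 64.1, and 35.8 FPKM in wild-type SPCs. Smc6 was at 70.5 FPKM in knockout and 41.0 FPKM in wild-type SPCs by the sum but at 28.4 FPKM in knockout and 41.0 FPKM in wild-type SPCs at the exon level. Nsmce4a was at 55.8 FPKM in knockout and 33.2 FPKM in wild-type SPCs. At the exon level 3 genes were at least 2-fold lower, Smc2, Ncapg2 and Smchd1, the last pair named after their values were seen.

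Among 18 of 19 meiotic axis and prophase partners that could be compared, 1 was at least 2-fold higher and none at least 2-fold lower, and the median log2 ratio was -0.08 by the sum and 0.02 at the exon level. Meikin was below the filter in both libraries. Syce3, of the central element of the synaptonemal complex, was the one, at 66.5 FPKM in knockout SPCs and 30.4 FPKM in wild-type SPCs. Its deposited bounds overlap, at 34.2 to 53.5 in knockout and 22.6 to 38.8 in wild-type SPCs, and those of the knockout library do not contain its value. Sycp2, an axis protein, was at 17.4 FPKM in knockout and 27.05 FPKM in wild-type SPCs, and Spo11, which makes meiotic double-strand breaks, at 4.36 FPKM in knockout and 7.44 FPKM in wild-type SPCs. Hormad2, which marks unsynapsed axes, was at 9.44 FPKM in knockout and 6.08 FPKM in wild-type SPCs. Its exon levels were closer, at 5.25 FPKM in knockout and 4.62 FPKM in wild-type SPCs. The deposited bounds of the libraries overlap for Hormad2 and for Spo11. The members of this list thus lay on both sides, as the meiotic cohesin genes did.

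**Figure D5:**
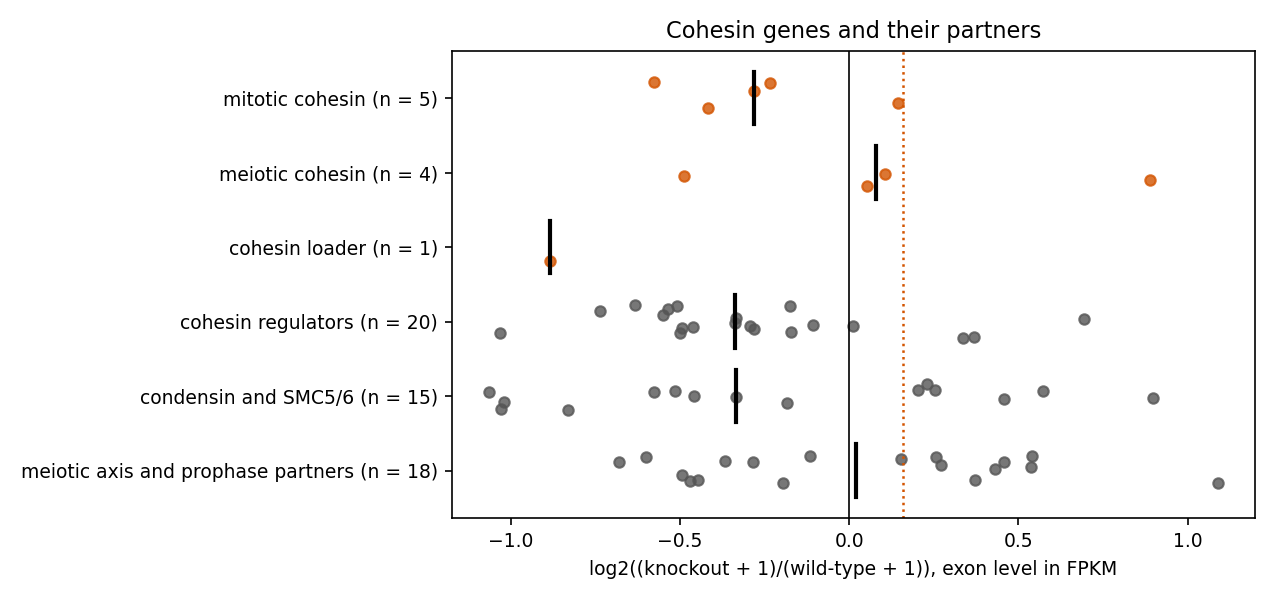
Exon-level log2 ratio of the knockout over the wild-type library (x axis) for the members (orange) and the genes of 3 further lists (grey). Each point is a gene, black bars are list medians, the dotted line is the median of 0.16 over all genes compared, and vertical scatter within a row has no meaning. The medians are -0.28 for mitotic and 0.08 for meiotic cohesin genes.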

How the data were processed

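Poly(A) RNA of 1 Dnmt3l knockout and 1 wild-type library was sequenced as paired ends on a HiScanSQ, per the labels' protocols, which describe no step that marks the strand. The tools CASAVA 1.9, TopHat2 2.0.8 and Cufflinks 2.1.1, with mm10 as build, come per the submitters' processing notes; settings are not given in the sources used here. Each deposited file lists FPKM, its bounds and a coverage for 30073 RefSeq transcripts and for models assembled from that library, 20415 in the knockout and 20579 in the wild-type library. The authors' FPKM entered without any rescaling, and the deposited coverage served in an alternative.

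RefSeq identifiers were named by accession for 28942 of 30079, through GENCODE M21 accessions for 174 and by exon overlap with GENCODE M21 for 884, and 79 stayed unnamed. An assembled model with a length of at least 300 nt was added to whichever gene of its strand held most of its bases; models without a strand needed a share of 0.5, and none joined a member. Genes that reached 1 FPKM in either library, with a longest transcript of at least 300 nt, were compared by the log2 ratio of the knockout over the wild-type library after adding 1 to each FPKM. No test was made, with 1 library per genotype, and the computation was tested on simulated data. End levels are exon levels within 1000 nt of either transcript end, on the longest RefSeq entry. In each further list, up to 4 genes of 5 FPKM or more with the largest absolute log2 ratio are named. The median coverage per FPKM was 3.45 in the knockout and 3.14 in the wild-type library. The members and lists were chosen with earlier results of these data known. Python 3.11.15, pandas 2.3.3 and bedtools 2.31.1 were used.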

Additional observations from a re-analysis of the deposited data

Results flagged for a closer look

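Near Nipbl, assembled models without a strand that were not counted for any gene were listed in the knockout library and not in the wild-type library. There were 2 of them, a single exon of 1215 nt upstream of the gene at 0.973 FPKM (bounds 0.507 to 1.43) and a single exon of 840 nt between its exons at 1.02 FPKM (0.400 to 1.60), 1.99 FPKM in all. Their signal was singled out because it lies outside the values compared and exceeds the wild-type library, where no such model was assembled. Near other members such models were higher in the wild-type library. Stag1 had 0 FPKM in knockout and 0.962 FPKM in wild-type SPCs, Smc1a 0.793 and 2.99 FPKM, and Stag3 1.18 and 1.66 FPKM in the same order.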

How the results depend on the processing

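The median log2 ratio of the mitotic genes, -0.25, became -0.45 when centred on the median gene, -0.45 after scaling by upper quartiles, -0.54 after scaling by the totals that omit the 50 most abundant genes, -0.11 from deposited coverage, and -0.011 with RefSeq transcripts only or the most abundant one. The median of the meiotic genes, 0.48, became 0.27, 0.28 and 0.18 under the same 3 scalings, 0.080 at the exon level, and -0.90 with RefSeq transcripts only or the most abundant one. At the exon level, settings added after seeing the data gave -0.43 for the mitotic and -0.072 for the meiotic median when centred, and 0.12 for the meiotic median with the length trend removed. The median over the 5 pairs, 0.38, became -0.47 with RefSeq transcripts only or the most abundant one, and Stag3 over Stag1, 1.18, turned to -0.34 under both, while Smc1b over Smc1a, 0.38, became -1.56 and Rad21l over Rad21, -0.24, became -1.46 with RefSeq transcripts only. Members at least 2-fold higher, 0 as reported, were 1 with the coverage attribute (Rec8), 1 with the length trend removed (Nipbl) and 3 at 1.5-fold, where 22.7% of all genes were. Members at least 2-fold lower, 0 as reported, were 1 scaled to the total (Stag1), 3 with RefSeq transcripts only or the most abundant one, 1 at the exon level when centred (Nipbl), 2 at the 5′ end and 2 at 1.5-fold, where 9% of all genes were. Without a filter on low values, 4.69% of genes were at least 2-fold higher and 2.14% lower. For Smc3, Rad21 and Stag1 the log2 ratio was below 0 in all 17 settings. The value closest to 0 was -0.007 for Smc3, -0.011 for Rad21 and -0.070 for Stag1, so some settings gave almost no difference. The log2 ratio of Rec8 was above 0 in all 17, and that of Rad21l below 0 in all 15 that gave it a value. Several settings repeat 1 value, for Rec8 those that choose among models. The cause of these shifts was not tested. No length limit on models and same-strand models only gave the same values for the members. No paired analysis was possible because each genotype has 1 library with no replicate number, and leaving out a replicate was not possible for the same reason. The unknown depth limits what can be said of low values such as those of Rad21l.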

Other observations

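A few member genes share a start region with a gene on the other strand. Ribc1 starts 133 nt from Smc1a and Ribc2 starts 142 nt from Smc1b, so these paralogs of a family of ciliary proteins stand head to head with the SMC1 paralogs. Ribc1 was at 10.2 FPKM (8.19 to 11.2) in the knockout library against a listed 0 (upper bound 0.0818) in the wild-type one. Ribc2 was at 3.76 FPKM (2.096 to 5.35) in the knockout and 4.09 FPKM (1.69 to 6.43) in the wild-type library. Gpc2, a glypican gene, starts 572 nt from Stag3 and was at 18.4 FPKM (16.0 to 20.8) in the knockout and 17.5 FPKM (14.9 to 20.1) in the wild-type library.

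Assembled models that begin in an internal first exon, sharing no base with a RefSeq exon of the gene, were found for 3 members in the knockout library (Smc1b, Stag3 and Stag2) and for 1 in the wild-type library (Rad21). Over all genes compared, such models were found for 2173 genes (15.7%) in the knockout and 1675 genes (12.1%) in the wild-type library. This count was chosen after seeing the data, and the first exons of the knockout members are short, at 55 nt for Smc1b, 56 nt for Stag3 and 44 nt for Stag2.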
